A study of Rattus norvegicus with 22 samples.

Results

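The glucocorticoid response genes are 8 rat genes of the cellular response to glucocorticoid hormone, followed here in epididymal adipose tissue (fat) and gastrocnemius muscle. They were taken by name from the gene table and are Nr3c1, Hsd11b1, Fkbp5, Tsc22d3, Zbtb16, Sgk1, Klf9 and Ddit4. Since the table holds a pair of entries named Nr3c1, the 8 genes gave 9 of its 32623 entries, and all 9 passed the filter on low counts in both tissues. The animals were male Sprague Dawley rats, bought at 3 weeks of age and made obese on a high-fat diet over 8 weeks, so that the controls were obese as well. For 4 weeks they lived under normoxia (21% oxygen) or at reduced oxygen (hypoxia), either without training (quiet) or with treadmill running that began at 17 o'clock, 1 h per day on 5 days per week. The fat groups were hypoxia exercise (FHE, n = 2), hypoxic quiet (FH, n = 2), normoxia exercise (FCE, n = 3) and normoxia quiet (FC, n = 3). The muscle groups were MHE, MH, MCE and MC, with n = 3 each, and the treatments without a tissue are written HE, H, CE and C. Rats ran at 20 m/min in HE and at 25 m/min in CE, so speed differed beside oxygen in HE against CE and in the interaction. Rats were fasted for 12 h and anaesthetised with chloral hydrate before killing. The hour of killing of each group was not given in the sources used here, so the treatments cannot be told apart from a difference in the hour of sampling. The number of rats stated matches the 22 libraries, which reads as 1 rat per library. The labels do not say whether same-numbered fat and muscle libraries share a rat. The main fits took all libraries as independent, and p-values between the tissues rest on that.

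Glucocorticoids are steroid hormones of the adrenal cortex, and the main one in the rat is corticosterone, whose blood level follows the day and rises with stress and exertion. The hormone binds the glucocorticoid receptor, which chaperones hold in the cytoplasm, and the receptor then enters the nucleus and switches target genes on or off at short palindromic DNA elements. In fat the hormone is known for its effects on lipolysis and on the formation of adipocytes, and in muscle for its effects on protein breakdown and fuel use.

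The deposited values are read counts per gene. Levels are given as CPM of nuclear counts, which is the count of a gene divided by the count of all genes outside the mitochondrial genome, on the usual CPM scale. Total counts were 31449793 to 44334313 per fat library and 27149905 to 43834953 per muscle library. Mitochondrial transcripts took 89.4% to 97.4% of the muscle counts, which left 841153 to 4334813 nuclear counts per muscle library, against 20060028 to 36162561 per fat library. In fat the mitochondrial share was 44.7% in FHE2 and 40.7% in FHE3, against 10.1% to 22.6% in the other 8 libraries. As a check of the tissue labels, 6 of 6 adipocyte markers summed to 15291 to 38612 CPM in fat and to 476 to 1249.7 CPM in muscle. The muscle fibre markers found (5 of 6) summed to 33996 to 75959.6 CPM in muscle. In fat they summed to 16351 CPM in FHE3 and 1073 CPM in FCE2, against 3.39 to 51.4 CPM in the other 8. Acta1 of that list was at 7031 CPM in FHE3 and 549.5 CPM in FCE2, against 0.138 to 24.1 CPM in the other 8. FH3 stood apart by its mesothelial marker Msln, at 403 CPM against 0.179 to 67.8 CPM in the other 9 fat libraries. It also had the highest sums of macrophage markers, 2093 CPM against at most 1120.0 CPM in the other 9, and of T cell markers, 98.9 CPM against at most 34.2 CPM, and the lowest sum of adipocyte markers, against at least 24614 CPM. These are bulk samples, in which fewer cells of a type and less RNA per cell cannot be told apart. Groups of 2 or 3 libraries are small. The edgeR p-values set a difference between groups against a spread between libraries, estimated over all libraries of a fit with the help of all genes.

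The question put to these genes was whether running, reduced oxygen or both together changed their RNA. The means of Fkbp5, Tsc22d3 and Zbtb16 were higher in the running groups than in the quiet groups of the same oxygen, in fat and in muscle. The same held for Sgk1 in fat alone and for Hsd11b1, Klf9 and Ddit4 in muscle alone, while the shorter of the entries named Nr3c1 had lower means in the running groups of both tissues. For Zbtb16 in fat all groups overlapped. The longer entry of the receptor gene Nr3c1 and the gene of the steroid-activating enzyme Hsd11b1 overlapped between treatments in all comparisons but 1 each. In edgeR's quasi-likelihood test no entry of the 9 reached an adjusted p under 0.05 in any comparison within a tissue, so none of these differences is called. The smallest adjusted p was 0.0897 for Fkbp5 in HE against C in fat and 0.328 for Zbtb16 in HE against C in muscle.

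**Figure D1:**
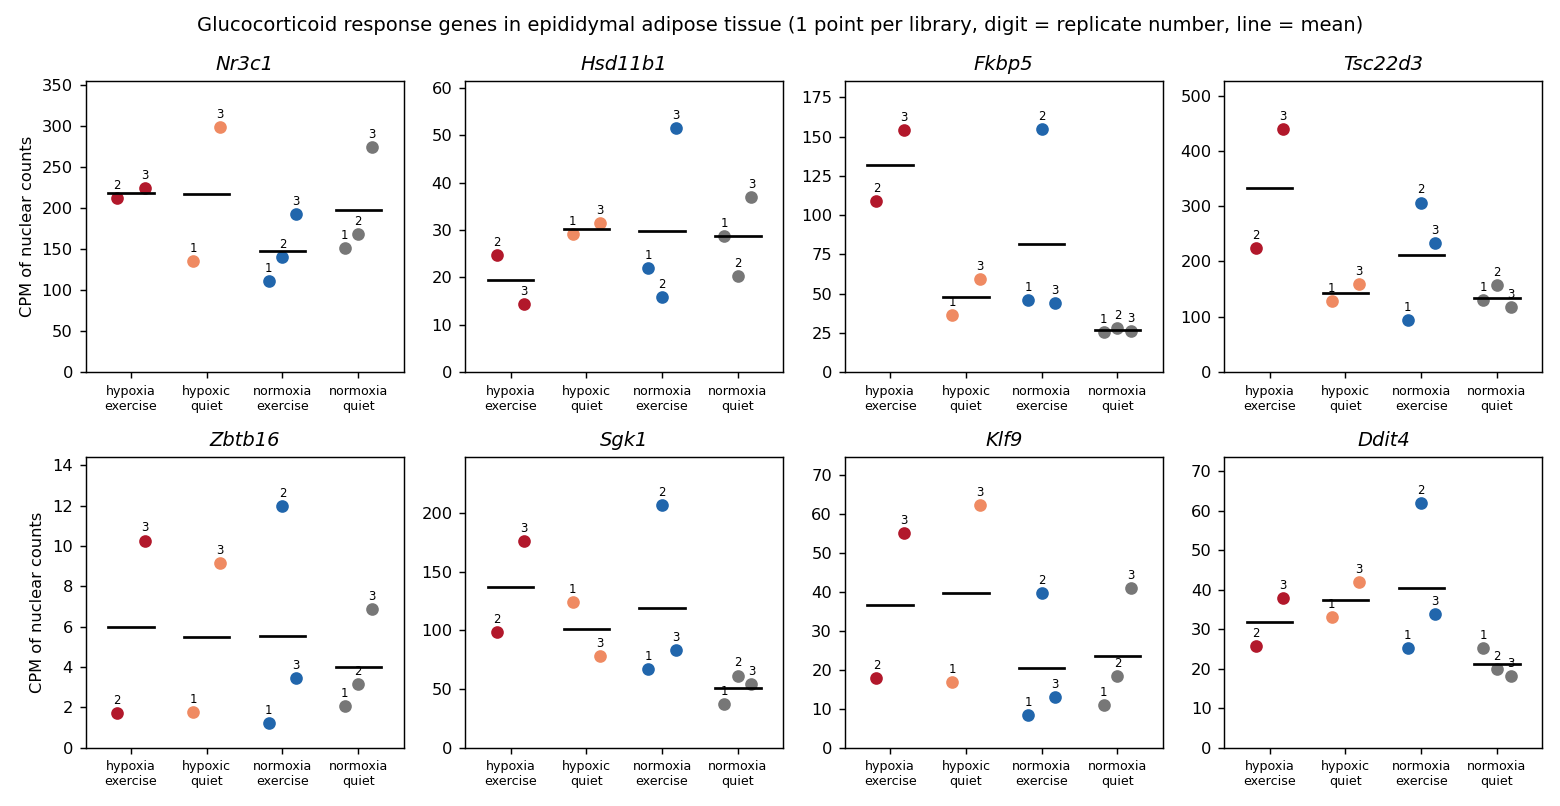
CPM of nuclear counts (y axis, linear from 0) of the 8 genes in the 10 fat libraries, 1 panel per gene, with hypoxia exercise, hypoxic quiet, normoxia exercise and normoxia quiet from left to right. Points are libraries with their replicate numbers, lines are means, and Nr3c1 is its longer entry. The Fkbp5 points lie at 109 and 154 in hypoxia exercise and at 25.3, 28.3 and 25.9 in normoxia quiet.

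**Figure D2:**
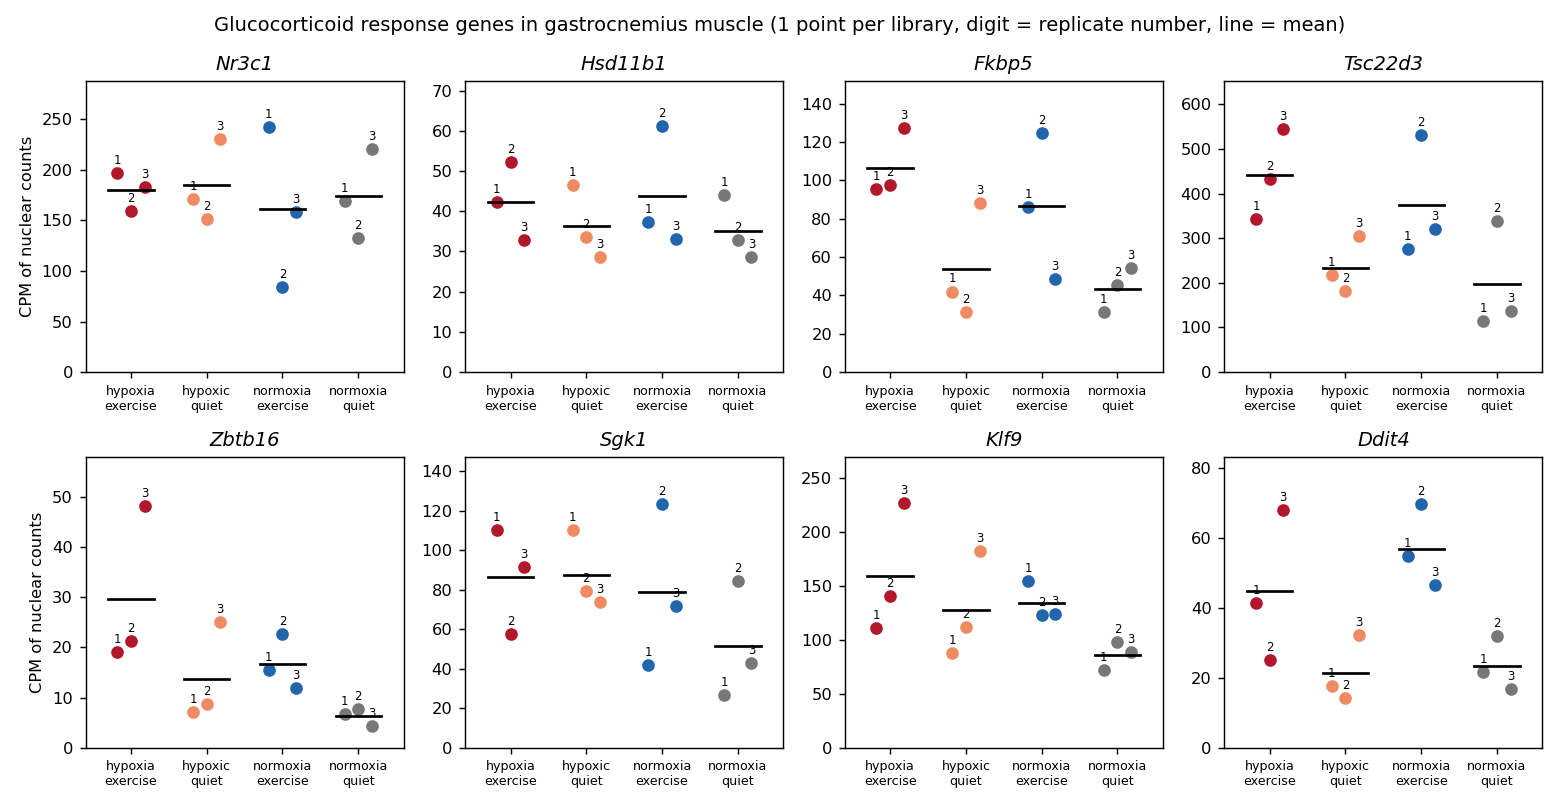
The same plot for the 12 muscle libraries, with CPM of nuclear counts on the y axis, 1 point per library and a line at each mean. The Zbtb16 points lie at 19.2, 21.3 and 48.2 in hypoxia exercise and at 6.67, 7.74 and 4.26 in normoxia quiet.

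Counts of entries in each comparison are set beside the share of all tested genes that met the same rule, over 16364 genes in fat and 12421 in muscle. The genes were chosen with earlier results of these data known, so counts or medians beyond those of all genes are no test of an excess. For HE against C in fat, 0 of 9 entries were called at an adjusted p under 0.05, against 0.141% of all genes. At an unadjusted edgeR p under 0.05, 3 of 9 were higher in HE, against 9.47% of all genes, and 1 of 9 was lower, against 10.6%. The libraries of HE lay above all those of C for 4 of 9 entries in fat, against 19.7% of all genes. Running was then taken within each oxygen level. With CE against C in fat, 3 of 9 were higher at an unadjusted edgeR p under 0.05, against 3.04% of all genes, and 2 of 9 did not overlap, against 4.24%. In HE against H in fat, 2 of 9 were higher at that p, against 7.41%, and the same number lay above H without overlap, against 14.2%. With adjustment the edgeR test called 0% of all genes in both of these comparisons.

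Muscle was counted in the same way and with the same limit. For HE against C in muscle, 5 of 9 entries were higher at an unadjusted edgeR p under 0.05, against 3.53% of all genes. A total of 4 of 9 did not overlap with C, against 6.34%. None of the 9 was lower at that p, and none was called after adjustment, against 0.105% of all genes. In HE against H in muscle, 4 of 9 were higher at that p, against 1.57%, and 2 of 9 did not overlap, against 3.92%. In CE against C in muscle, 4 of 9 were higher at that p, against 1.93%, and 3 of 9 did not overlap, against 4.19%. In the comparisons of oxygen no entry reached an unadjusted edgeR p under 0.05. That held for H against C, where 4.75% of genes did in fat and 8.42% in muscle. It also held for HE against CE, with 11.4% of genes in fat and 3.58% in muscle. At shares this small, none of 9 is near what all genes show, and it is not read as a result about these entries. The effect of running was not tested against that of oxygen. The libraries of H lay above all of C for 3 of 9 entries in fat (Fkbp5, Sgk1 and Ddit4), against 14.2% of all genes. These comparisons share libraries of C or of HE, and their counts are therefore not independent of each other.

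The test of any difference among the 4 groups of a tissue called no entry after adjustment. At an unadjusted edgeR p under 0.05 it gave 2 of 9 entries in fat, Fkbp5 (adjusted p = 0.231) and Tsc22d3 (adjusted p = 0.331), against 14.3% of all genes. In muscle it gave 4 of 9, Ddit4 (adjusted p = 0.565), Zbtb16 (adjusted p = 0.594), Fkbp5 (adjusted p = 0.749) and Tsc22d3 (adjusted p = 0.868), against 5.32%. The median log2 fold change of the 9 entries was 0.65 for HE against C in fat, against -0.05 over all genes tested, and 0.90 in muscle, against 0.00. In CE against C it was 0.57 in fat, against 0.00, and 0.67 in muscle, against 0.00. For H against C the medians were nearer to 0, at 0.16 in fat and 0.22 in muscle.

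Nr3c1 encodes the glucocorticoid receptor itself. Its longer entry lies on chr18:31728373-31749647 (minus strand). Coordinates of genes are those of the table, on the rat genome of Ensembl release 99. In fat it stood at 212 and 225 CPM in FHE, 135 and 299 in FH, 111, 141 and 193 in FCE and 152, 168 and 274 in FC. In muscle it stood at 197, 159 and 183 CPM in MHE, 172, 152 and 231 in MH, 243, 84 and 158 in MCE and 169, 133 and 221 in MC. Both FHE libraries lay above all of FCE, where 14.6% of all genes did so, and all other pairs of groups overlapped. The highest fat library was FH3, the library that stood apart in mesothelial, macrophage, T cell and adipocyte markers. FC3 was next, at 274 CPM. In the paper FH3 and FC3 have the highest shares of intron reads of the fat libraries. The part of these markers or of intron reads in the values was not tested.

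The second entry named Nr3c1 covers 1239 bases at chr18:32669427-32670665 on the same strand, and reads shared between the entries cannot be told apart here. It was low in fat, at 0.847 and 4.34 CPM in FHE, 5.4 and 22.6 in FH, 1.79, 6.4 and 3.05 in FCE and 4.92, 7.25 and 24.5 in FC. FHE lay below FC, as 21.8% of all genes did, and edgeR gave -2.15 (SE 0.95, adjusted p = 0.247) on the log2 scale. Without FHE2 the log2 fold change was -1.42, without FHE3 -3.77, and without FC3 -1.26. FC3 and FH3 were the highest fat libraries here too, and in the paper FHE2 and FHE3 have the lowest shares of intron reads in fat. The part of intron reads in the fat difference was not tested. In muscle the entry ranged from 9.92 to 37.6 CPM and its groups overlapped.

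Hsd11b1 encodes the enzyme that regenerates active corticosterone from its inert keto form inside the cell. It lies on chr13:111926442-111972603 (minus strand). In fat it stood at 24.6 and 14.3 CPM in FHE, 29.1 and 31.4 in FH, 22, 15.9 and 51.6 in FCE and 28.8, 20.4 and 37 in FC. In muscle the values were 42.2, 52.2 and 32.7 CPM in MHE, 46.4, 33.7 and 28.5 in MH, 37.2, 61.3 and 33.1 in MCE and 43.9, 32.9 and 28.6 in MC. FHE lay below both FH libraries in fat, as 28.9% of all genes did, and every muscle group overlapped with every other. Neither Hsd11b1 nor the longer Nr3c1 entry reached an unadjusted edgeR p under 0.05 in any comparison of treatments.

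Fkbp5 encodes a co-chaperone that lowers the hormone affinity of the receptor and is itself induced by the receptor, as a negative feedback. It lies on chr20:7976713-8019020 (minus strand). Fat held 109 and 154 CPM in FHE, 36.3 and 59.2 in FH, 45.6, 155 and 44.2 in FCE and 25.3, 28.3 and 25.9 in FC. Every library of FHE, FH and FCE was above every library of FC, which lay close together, and FCE2 was far above the other FCE libraries. Against C, edgeR gave on the log2 scale 2.33 (SE 0.51, adjusted p = 0.0897) in HE and 1.69 (SE 0.47, adjusted p = 0.923) in CE. DESeq2 called the HE difference, with an adjusted p of 0.000829, while it called 10.7% of all genes. Leaving out FCE2 also brought a call by edgeR, with an adjusted p of 0.0286, where 0.296% of all genes were called. It was the only omission of 1 library that did so. FCE2 is in neither HE nor C, and the log2 fold change stayed at 2.33. The CE against C value without FCE2 was 0.81. Running within hypoxia gave 1.72 (SE 0.58, adjusted p = 0.235) for HE against H.

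FHE2 held 14.5 CPM of muscle fibre markers and 109 CPM of Fkbp5, and FHE3 held 16351 and 154 CPM. Without FHE3 the HE against C value of Fkbp5 in fat was 2.05. The mitochondrial share was 44.7% in FHE2 and 40.7% in FHE3, and the part of fibre transcripts or of this share in the result was not tested. In muscle Fkbp5 stood at 95.4, 97.6 and 127 CPM in MHE, 42, 31.4 and 88 in MH, 86.2, 125 and 48.5 in MCE and 31.1, 45.5 and 54.1 in MC. MHE lay above every library of MH and MC, while MCE overlapped with MC through MCE3. By edgeR the log2 fold change was 1.30 (SE 0.40, adjusted p = 0.605) for HE against C. It was 1.08 (SE 0.40, adjusted p = 1) for HE against H. The CE against C value was 0.99 (SE 0.40, adjusted p = 1), and 0.56 without MCE2.

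Tsc22d3 encodes the glucocorticoid-induced leucine zipper, a protein that mediates anti-inflammatory effects of the hormone. It lies on chrX:111884295-111887906 (minus strand). Fat held 225 and 440.4 CPM in FHE, 128 and 159 in FH, 93.7, 307 and 233 in FCE and 129, 157 and 117 in FC. FHE lay above FH and FC, and FCE spanned the range from below FC to above FHE2. In edgeR the log2 fold change was 1.31 (SE 0.45, adjusted p = 0.156) for HE against C, and DESeq2 gave an adjusted p of 0.0499. The HE against H value was 1.43 (SE 0.51, adjusted p = 0.24). Without FHE3 these log2 fold changes were 0.74 for HE against C and 0.87 for HE against H.

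In muscle Tsc22d3 stood at 344, 433 and 545 CPM in MHE, 216, 182 and 304 in MH, 275, 530.2 and 319.5 in MCE and 115, 339 and 137 in MC. MHE lay above all of MH and MC, and MC2 was far above the other MC libraries. The edgeR log2 fold change was 1.18 (SE 0.41, adjusted p = 0.703) for HE against C. Without MC2 it was 1.84. For HE against H it was 0.96 (SE 0.40, adjusted p = 1), and for CE against C 0.96 (SE 0.41, adjusted p = 1). This CE against C value was 0.56 without MCE2 and 1.63 without MC2.

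RefSeq promoter windows on GRCr8 were matched for 6 of the 8 genes, Nr3c1, Fkbp5, Tsc22d3, Sgk1, Klf9 and Ddit4, and not for Hsd11b1 and Zbtb16. Of the 3 genes with higher means in the running groups of both tissues, Fkbp5 and Tsc22d3 thus had windows, and a stretch before a start of each is shown. The 6 genes were matched in 11 windows that run from 250 bases before to 50 bases after a start. The palindromic receptor element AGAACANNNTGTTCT, read on both strands, was in 0 of the 11 windows and in 0.0149% of all 33469 RefSeq windows. Its first arm AGAACA was in 0 of 11 and in 20.7% of all windows, and CACGTG, an E-box bound by clock factors, was in 0 of 11 and in 6.42%. These letters are thus absent from these windows, which says nothing of elements elsewhere or of the receptor. Capitals mark the stretch nearest to the element, which shares 6 of its 12 set bases for Fkbp5 and 8 for Tsc22d3, and 99.9% and 58.2% of all windows hold a stretch that is as near or nearer. For Fkbp5 it is the first of 3 stretches with that number. Both sequences are the 250 bases before a start on the minus strand, and the Tsc22d3 start is the one farthest downstream of 3.
Fkbp5, chr20:6543556-6543805: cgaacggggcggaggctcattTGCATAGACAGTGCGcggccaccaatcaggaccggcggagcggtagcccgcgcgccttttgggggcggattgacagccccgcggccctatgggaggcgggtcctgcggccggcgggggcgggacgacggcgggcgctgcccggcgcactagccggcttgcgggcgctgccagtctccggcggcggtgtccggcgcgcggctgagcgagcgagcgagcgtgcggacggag
Tsc22d3, chrX:109010035-109010284: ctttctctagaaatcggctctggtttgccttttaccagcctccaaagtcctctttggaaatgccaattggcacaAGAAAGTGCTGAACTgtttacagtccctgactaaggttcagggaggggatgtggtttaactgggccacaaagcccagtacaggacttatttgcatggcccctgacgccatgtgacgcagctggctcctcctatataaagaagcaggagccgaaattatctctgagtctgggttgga

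Zbtb16 encodes a zinc finger repressor of transcription that glucocorticoids induce in many cell types. It lies on chr8:52985313-53146953 (minus strand). In muscle, where it rests on 8 to 78 counts per library, it stood at 19.2, 21.3 and 48.2 CPM in MHE, 7.08, 8.77 and 25 in MH, 15.4, 22.7 and 11.9 in MCE and 6.67, 7.74 and 4.26 in MC. MHE and MCE each lay above all of MC, and MH overlapped with every other group. It had the largest log2 fold change of the 9 entries for HE against C in muscle, 2.31 (SE 0.56, adjusted p = 0.328) by edgeR, and DESeq2 called it with an adjusted p of 0.0289, beside 0.459% of all genes. For CE against C the edgeR value was 1.48 (SE 0.56, adjusted p = 1). For HE against H it was 1.27 (SE 0.53, adjusted p = 1), and 0.71 without MHE3. Fat held far less, at 1.74 and 10.3 CPM in FHE, 1.79 and 9.17 in FH, 1.21, 12 and 3.44 in FCE and 2.05, 3.15 and 6.87 in FC. Each fat group held 1 library well above the rest of it, and all pairs of groups overlapped.

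Klf9 encodes a Krüppel-like transcription factor that is a direct target of the receptor and also varies with the time of day. It lies on chr1:240908483-240933198 (plus strand). In muscle it stood at 111, 141 and 227 CPM in MHE, 87.6, 112 and 182 in MH, 155, 123 and 124 in MCE and 71.7, 97.8 and 89.1 in MC. All libraries of MHE and of MCE lay above all of MC. For HE against C edgeR gave 0.90 (SE 0.31, adjusted p = 0.703) on the log2 scale, and 0.55 without MHE3. In fat Klf9 stood at 17.9 and 55.2 CPM in FHE, 17 and 62.2 in FH, 8.47, 39.8 and 13 in FCE and 11.1, 18.4 and 41.1 in FC. The groups overlapped in fat, and the libraries highest in Klf9 (FHE3, FH3, FCE2 and FC3) were also the highest of their groups in Zbtb16.

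Sgk1 encodes the serum- and glucocorticoid-regulated kinase, which acts on ion channels and transporters. It lies on chr1:24185435-24302298 (minus strand). Fat held 98.4 and 176 CPM in FHE, 124 and 77.8 in FH, 66.7, 207 and 83.3 in FCE and 36.9, 61.6 and 54.7 in FC. All 7 libraries of the other groups lay above the 3 FC libraries. The edgeR log2 fold change was 1.45 (SE 0.52, adjusted p = 0.172) for HE against C, and 0.96 without FHE3. For CE against C it was 1.30 (SE 0.48, adjusted p = 0.923), and 0.60 without FCE2. In muscle Sgk1 stood at 110.2, 57.7 and 91.4 CPM in MHE, 110.2, 79.1 and 73.7 in MH, 42, 123 and 71.7 in MCE and 26.7, 84.2 and 43 in MC. The muscle groups overlapped, with the lowest value in MC1 and the highest in MCE2.

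Ddit4 encodes an inhibitor of mTOR signalling that both glucocorticoids and low oxygen are known to induce. It lies on chr20:29509289-29511382 (minus strand). In muscle it stood at 41.4, 25.1 and 68 CPM in MHE, 17.7, 14.3 and 32.1 in MH, 54.7, 69.5 and 46.4 in MCE and 21.7, 31.9 and 16.8 in MC. MCE lay above all of MC and MH, and MHE overlapped with both quiet groups through MHE2. By edgeR the log2 fold change was 1.31 (SE 0.40, adjusted p = 1) for CE against C. It was 1.16 (SE 0.41, adjusted p = 1) for HE against H and 0.96 (SE 0.40, adjusted p = 0.796) for HE against C, and 0.71 and 0.51 in the same order without MHE3. Fat held 25.9 and 37.9 CPM in FHE, 33 and 42 in FH, 25.2, 61.9 and 33.9 in FCE and 25.3, 19.8 and 18.1 in FC. FHE and FH lay above all of FC, and FCE overlapped with FC. The CE against C value in fat was 0.98 (SE 0.35, adjusted p = 0.923) by edgeR, and 0.50 without FCE2. Hypoxia without running gave no unadjusted edgeR p under 0.05 for Ddit4 in either tissue.

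**Figure D3:**
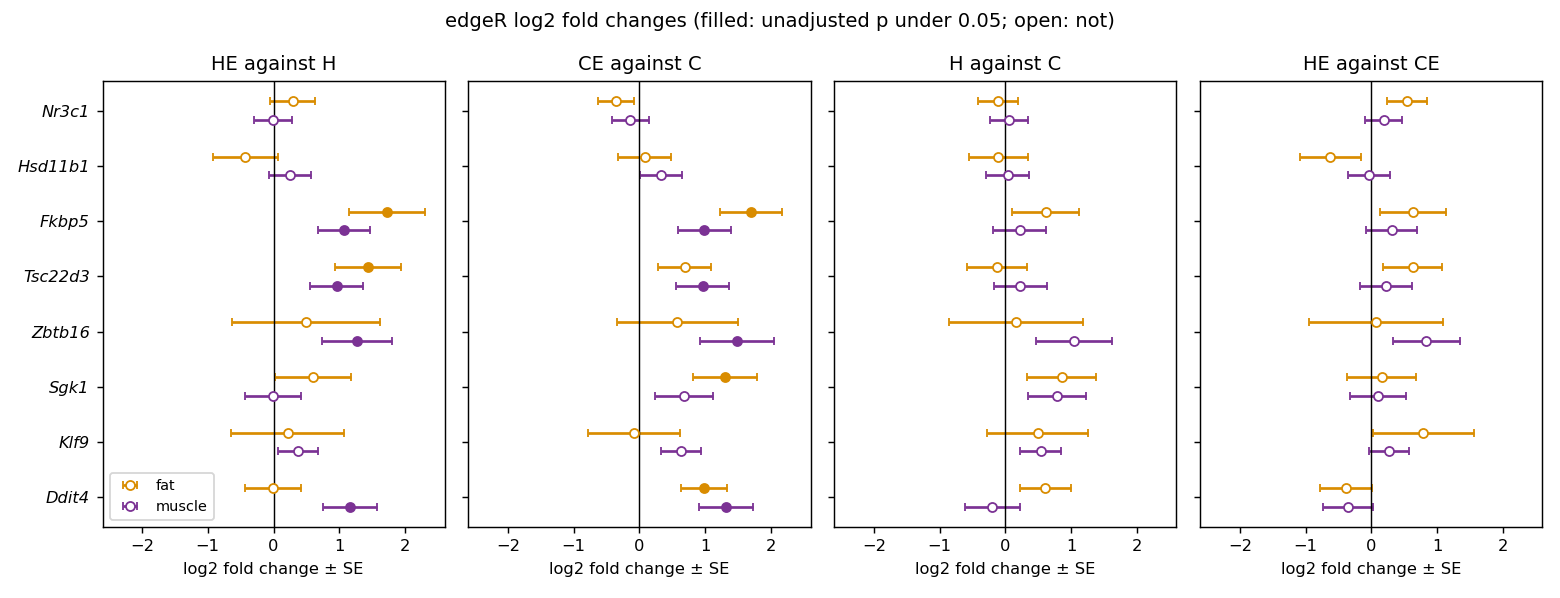
Log2 fold changes from edgeR (x axis), with standard errors derived from its F statistic, of the 8 genes (rows, Nr3c1 by its longer entry). The 4 comparisons have 1 panel each, with fat drawn above muscle. Filled points had an unadjusted p under 0.05. They have log2 fold changes of 0.96 to 1.72 in the panels of running, and no point is filled in those of oxygen.

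Running was also averaged over both oxygen levels, a contrast chosen after the data had been seen. In muscle 5 of 9 entries had an unadjusted edgeR p under 0.05 and were higher, against 1.53% of all genes. Ddit4 led, at 1.24 (SE 0.29, adjusted p = 1) on the log2 scale, and ranked number 4 of all 12421 genes by p. Behind it came Zbtb16 with 1.37 (SE 0.39), Fkbp5 with 1.03 (SE 0.28), Tsc22d3 with 0.96 (SE 0.29) and Klf9 with 0.50 (SE 0.22). Without MHE3 the Klf9 value was 0.33. Their adjusted p was 1 in each case, and 0% of genes were called. In fat 3 of 9 were higher at that p, against 9.39%. They were Fkbp5 with 1.71 (SE 0.37, adjusted p = 0.152), Tsc22d3 with 1.06 (SE 0.33, adjusted p = 0.161) and Sgk1 with 0.95 (SE 0.38, adjusted p = 0.208). The shorter Nr3c1 entry was lower, with -1.83 (SE 0.64, adjusted p = 0.177). DESeq2 called Fkbp5, Tsc22d3 and the shorter Nr3c1 entry here, among 8.54% of all genes. Without FHE3 and FCE2 the fat log2 fold changes were 1.12 for Fkbp5, 0.57 for Tsc22d3 and 0.36 for Sgk1, and -2.98 for the shorter Nr3c1 entry. Without FCE2 alone that of Sgk1 was 0.60. Oxygen averaged over running gave 1 such entry, Zbtb16 in muscle with 0.94 (SE 0.38, adjusted p = 0.514), where 5.74% of genes were higher at that p. Without MH3 it was 0.62.

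Whether the effects themselves differed was tested directly. The interaction of running and oxygen had no entry at an unadjusted edgeR p under 0.05, the smallest being 0.107 in fat and 0.287 in muscle. At that p stood 5.21% of all genes in fat and 3.82% in muscle. The fat effect minus the muscle effect had no entry at that p in any of the 5 comparisons, in a fit of 14715 nuclear genes of all 22 libraries, and the smallest p was 0.0737, for HE against H. A larger effect in 1 tissue than in the other is therefore not shown for any of these genes.

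The levels of the clock gene Dbp, whose RNA follows the time of day, are set beside those of these genes. In fat it stood at 504 and 516 CPM in FHE, 292 and 264 in FH, 42.3, 137 and 67.3 in FCE and 27.9, 50.1 and 25.1 in FC. In muscle it stood at 469, 441 and 363 CPM in MHE, 393, 359 and 297 in MH, 123, 368 and 191 in MCE and 27.8, 34.9 and 28.1 in MC. All libraries of the other 3 groups lay above those of MC, and in fat those of FHE and FH lay above all of FCE and FC. All 8 of the 8 clock genes listed were found. Their sum ranged from 1248 to 1505 CPM in FHE, 994 to 1317 in FH, 339 to 750.3 in FCE and 277 to 365 in FC. In muscle it ranged from 1349 to 1453 CPM in MHE, 1192 to 1347 in MH, 884 to 1152 in MCE and 359 to 479 in MC. The part of the time of day in the values of the glucocorticoid response genes was not tested.

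Levels were next compared between the tissues. Levels of different genes are compared per length, as TPM rescaled to the nuclear genes. On that scale Tsc22d3 had the highest level in both tissues, 157 ± 81.6 TPM in fat and 194 ± 85 TPM in muscle (mean ± SD, n = 10 and 12). Zbtb16 had the lowest, 3.14 ± 2.57 TPM in fat and 7.55 ± 5.54 TPM in muscle. The rest lay between, with means of 62.2 TPM for Sgk1, 58.7 TPM for Nr3c1, 30.8 TPM for Fkbp5, 29.2 TPM for Ddit4, 27.8 TPM for Hsd11b1 and 18 TPM for Klf9 in fat. In muscle the order was Klf9 with 61 TPM, Nr3c1 with 41.8 TPM, Sgk1 with 34.6 TPM, Hsd11b1 with 31.1 TPM, Fkbp5 with 25.9 TPM and Ddit4 with 25.6 TPM. Neighbours in each of these orders of 6 genes differed by less than the larger of their SDs, except Nr3c1 with 58.7 ± 22.5 TPM and Fkbp5 with 30.8 ± 23.4 TPM in fat (mean ± SD, n = 10).

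**Figure D4:**
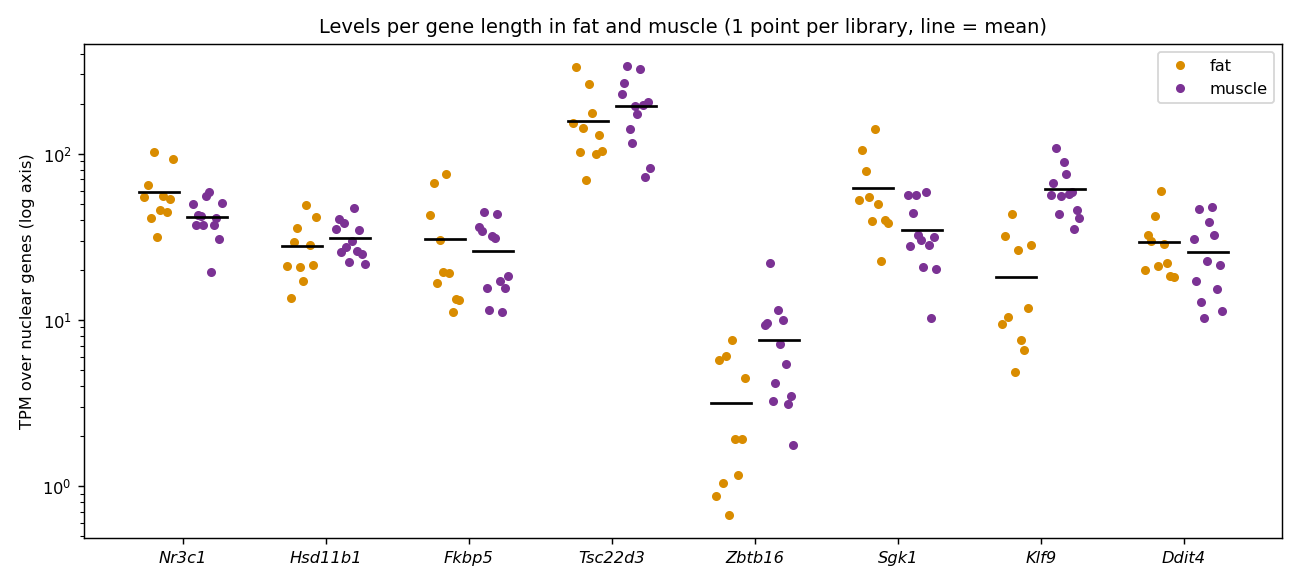
TPM over nuclear genes (y axis, log scale) of the 8 genes in the 10 fat and 12 muscle libraries, 1 point per library and a line at each mean, with Nr3c1 by its longer entry. The Klf9 means are 18 TPM in fat and 61 TPM in muscle.

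In edgeR with treatment as a covariate, 5 of 9 entries were called for fat against muscle, all lower in fat, where 24.9% of all genes were lower and 32.6% higher. Klf9 had the largest difference, with 8.47 to 62.2 CPM in fat, against 71.7 to 227 CPM in muscle, and edgeR gave -2.08 (SE 0.29, adjusted p = 3.15e-06) on the log2 scale. It was the 1 entry whose tissues did not overlap, as 4.61% of all genes did in that direction. Zbtb16 gave -1.37 (SE 0.43, adjusted p = 0.00913) and the shorter Nr3c1 entry -1.61 (SE 0.38, adjusted p = 0.000944) on the log2 scale by edgeR. Tsc22d3 with -0.57 (SE 0.22, adjusted p = 0.0323) and Hsd11b1 with -0.49 (SE 0.20, adjusted p = 0.0391) were nearer to the threshold. Among the omissions of 1 library the adjusted p of Hsd11b1 reached 0.106 and that of Tsc22d3 0.0955, so the call of both was lost in some. The longer Nr3c1 entry, Fkbp5, Sgk1 and Ddit4 were not called.

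How the genes varied with each other from library to library was described by Pearson's r of log2(CPM of nuclear counts + 1) over the 28 pairs of the 8 genes in each tissue. Permutation p-values were two-sided and adjusted over the 28 pairs, and the points share libraries, treatments and the scale of the nuclear total. In muscle 21 of 28 pairs had a positive r, against 53.9% of all pairs of the 10202 named genes with a mean of at least 5 CPM. A total of 9 pairs were called over 12 libraries, all among Fkbp5, Tsc22d3, Zbtb16, Klf9 and Ddit4, with r of at least 0.712, which 1.33% of all those pairs reached. The closest was Zbtb16 with Klf9, with r = 0.882 (permutation p = 0.00012, adjusted p = 0.00336, Spearman rho = 0.867, permutation p = 0.00048, adjusted p = 0.013). Fkbp5 with Zbtb16 gave r = 0.846 (permutation p = 0.000800, adjusted p = 0.00747, Spearman rho = 0.832, permutation p = 0.00139, adjusted p = 0.013). Fkbp5 with Tsc22d3 gave r = 0.807 (permutation p = 0.00161, adjusted p = 0.0113, Spearman rho = 0.839, permutation p = 0.00123, adjusted p = 0.013). Without the 2 libraries farthest from the median of the first gene, r was 0.816 for Zbtb16 with Klf9, 0.868 for Fkbp5 with Zbtb16 and 0.693 for Fkbp5 with Tsc22d3. The other 6 called pairs had r between 0.712 and 0.833. Without their 2 farthest libraries these ran from 0.499 for Tsc22d3 with Klf9 to 0.763 for Tsc22d3 with Zbtb16. On deviations from the group means 2 muscle pairs were called, Zbtb16 with Klf9 (r = 0.797, adjusted permutation p = 0.0281) and Zbtb16 with Ddit4 (r = 0.86, adjusted permutation p = 0.0112). The rest of the muscle relations were thus not shown within the groups. Deviations within a group cancel out and so depend on each other. The permutation did not allow for this, so p-values on deviations may be too small.

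In fat 20 of 28 pairs had a positive r, against 55.4% of all pairs of 10210 such genes. The 3 pairs called over 10 libraries had r of at least 0.82, which 2.71% of all those pairs reached, and by Spearman's rho none was called. Zbtb16 with Klf9 was again the closest, with r = 0.912 (permutation p = 0.00136, adjusted p = 0.0298, Spearman rho = 0.77, permutation p = 0.0131, adjusted p = 0.0827). Fkbp5 with Sgk1 gave r = 0.847 (permutation p = 0.00213, adjusted p = 0.0298, Spearman rho = 0.842, permutation p = 0.00407, adjusted p = 0.0827), and Fkbp5 with Tsc22d3 gave r = 0.82 (permutation p = 0.00423, adjusted p = 0.0395, Spearman rho = 0.685, permutation p = 0.035, adjusted p = 0.138). The 2 farthest libraries were FHE3 and FCE2 in each case, which also had the highest sums of muscle fibre markers in fat. Without them r was 0.907 for Zbtb16 with Klf9, 0.603 for Fkbp5 with Sgk1 and 0.541 for Fkbp5 with Tsc22d3, so the last pair of relations rests in part on those libraries. In 6 fat libraries (FHE2, FHE3, FH1, FCE2, FC1 and FC2) Mt-atp6 made up more than 8% of the reads of mitochondrial genes. Over these r was 0.917, 0.833 and 0.923 in the same order, and the other 4 libraries are too few for a value. Since FHE3 and FCE2 are among the 6, these values cannot show whether the Fkbp5 relations hold without FHE3 and FCE2. On deviations from the group means Zbtb16 with Klf9 gave r = 0.981 (adjusted permutation p = 0.00252). Fkbp5 with Sgk1 gave r = 0.728 (adjusted permutation p = 0.0528) and Fkbp5 with Tsc22d3 r = 0.681 (adjusted permutation p = 0.0896). These relations of Fkbp5 were thus not shown within the groups. The p-values on deviations may be too small as well, since in FHE and in FH the deviations of the 2 libraries mirror each other. Nr3c1 and Hsd11b1 were in no called pair of either tissue.

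**Figure D5:**
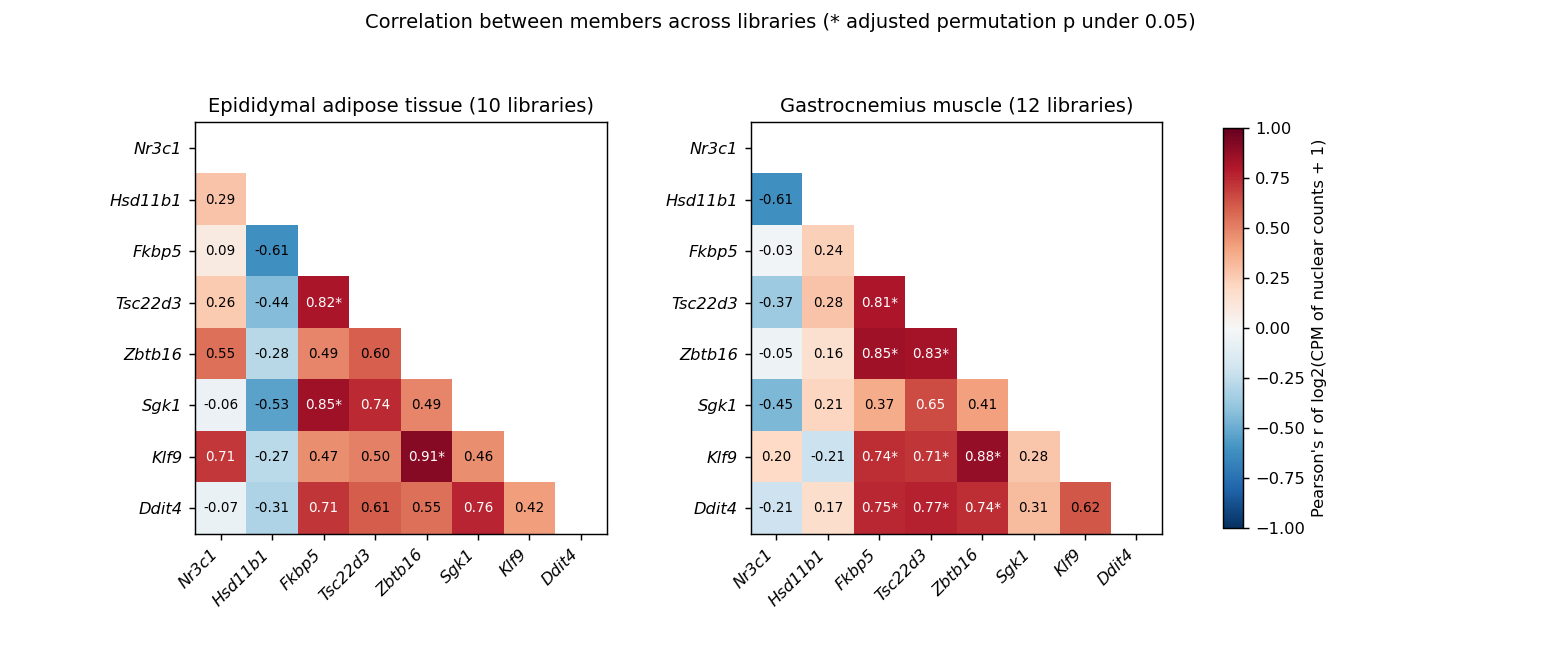
Pearson's r of log2(CPM of nuclear counts + 1) between each pair of the 8 genes over the 10 fat libraries (left) and the 12 muscle libraries (right), on a colour scale that runs from negative (blue) to positive (red), with Nr3c1 by its longer entry. Stars mark pairs with an adjusted permutation p under 0.05, of which 3 are in fat and 9 in muscle.

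Over all named genes with a mean of at least 5 CPM, the pattern most like that of Fkbp5 in fat was that of Fam214a (r = 0.96) and Nfkbia (r = 0.96), by Pearson's r over 10 libraries. Tsc22d3 was most like Mafk (r = 0.91) and Fam214a (r = 0.90), Zbtb16 most like Lmo7 (r = 0.93) and Klf9 (r = 0.91) and Klf9 most like Dnmbp (r = 0.94) and Erf (r = 0.93) in fat. Over the 12 muscle libraries Fkbp5 was most like Bcl2l1 (r = 0.89) and Zbtb16 (r = 0.85), Tsc22d3 most like Tob2 (r = 0.92) and Dab2ip (r = 0.88), Zbtb16 most like Klf9 (r = 0.88) and Taf6l (r = 0.88) and Klf9 most like Sh2d3c (r = 0.88) and Zbtb16 (r = 0.88). Zbtb16 and Klf9 were thus each among the nearest pair of genes of the other in muscle, and Klf9 was among those of Zbtb16 in fat.

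Further genes of the pathway were counted from the same fits. Their lists were also chosen with earlier results of these data known, so counts above the share of all genes are no test of an excess. A list of 18 genes of the receptor complex and the steroid supply gave 19 tested entries in fat. Its 1 called gene within a tissue was Hsd11b2, which encodes the enzyme that inactivates corticosterone. Hsd11b2 stood at 2.49 and 2.85 CPM in FHE, 9.25 and 7.87 in FH, 8.5, 13.2 and 11.5 in FCE and 17.3, 23.7 and 25.3 in FC. The FHE libraries lay below all the others and the FC libraries above all the others. For HE against C it fell by 3.02 on the log2 scale (SE 0.34, edgeR adjusted p = 0.0399), where 0.0978% of all genes were called lower. Without 1 library the log2 fold change was -3.13 to -2.92 with an adjusted edgeR p of 0.0371 to 0.118, and 7 of the 10 omissions ended the call, namely those of FHE2, FHE3, FCE1, FCE3, FC1, FC2 and FC3. Without FHE3 and FCE2 together the adjusted p was 0.0748. In muscle Hsd11b2 was at 0 to 2.35 CPM.

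Of 40 further targets of the receptor, 13 were higher and 3 lower at an unadjusted edgeR p under 0.05 for HE against C in fat, where 9.47% of all genes were higher and 10.6% lower. The 40 targets had a median log2 fold change of 0.31, against -0.05 over all genes. None of the 40 was called by edgeR after adjustment in any comparison of treatments. Nfkbia, an inhibitor of NF-kB signalling that the receptor induces, was at 248 and 263 CPM in FHE and 86, 92.1 and 77.7 in FC, for which edgeR gave 1.59 (SE 0.36, adjusted p = 0.0898) on the log2 scale. Lpl, the lipase that frees fatty acids from circulating triglycerides, was lower, at 4744 and 4423 CPM in FHE and 8494, 13246 and 12966 in FC, with -1.31 (SE 0.32, adjusted p = 0.0973). The groups did not overlap for either gene. DESeq2 called both, with adjusted p of 0.00182 for Nfkbia and 9.24e-06 for Lpl, while it called 10.7% of all genes. For CE against C in fat 9 targets were higher and 2 lower at that p, against 3.04% and 1.99% of all genes. Cdkn1a, which encodes a cell cycle inhibitor, was at 54.4, 75.7 and 40.6 CPM in FCE and 13, 29.5 and 20.8 in FC, with 1.52 (SE 0.37, adjusted p = 0.923) by edgeR. Errfi1, a feedback inhibitor of the EGF receptor, gave 1.63 (SE 0.45, adjusted p = 0.923), and Cited2, a transcriptional coregulator, gave -1.09 (SE 0.28, adjusted p = 0.923). For HE against H in fat 9 were higher and 0 lower, against 7.41% and 9.42% of all genes. For H against C in fat 0 were higher and 2 lower, against 2.4% and 2.35%. The genes of both lists with the smallest p were Hsd11b2 (-1.49), Cdkn1a (1.59) and Net1 (1.49) for HE against H in fat and Hsd11b2 (-1.53), Lpl (-1.28) and Anxa1 (-1.07) for H against C in fat, given with their log2 fold changes. For HE against CE in fat they were Hsd11b2 (-2.09), Arrdc2 (1.10) and Fbxo32 (1.39), and for the interaction in fat Lcn2 (-1.84), Fbxo32 (1.43) and Bcl6 (1.18). With running averaged over oxygen in fat they were Hsd11b2 (-1.21), Cdkn1a (1.55) and Nfkbia (1.17), and with oxygen averaged over running Hsd11b2 (-1.81), Lpl (-1.02) and Arrdc2 (0.85).

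In muscle 39 of the 40 targets were tested. For HE against C 5 were higher and 4 lower at an unadjusted edgeR p under 0.05, against 3.53% and 2.24% of all genes. The median log2 fold change of the tested targets in muscle was 0.44 for HE against C, 0.31 for CE against C, 0.44 for H against C and 0.01 for HE against H, against 0.00, 0.00, 0.00 and -0.01 over all genes in the same order. For these targets the median of H against C was thus as far from 0 as that of HE against C. Angptl4, an inhibitor of lipoprotein lipase, was at 8.99, 21 and 12.4 CPM in MHE and 45, 68.7 and 65 in MC, with -2.04 (SE 0.40, adjusted p = 0.137) by edgeR. Pdk4, the kinase that turns off pyruvate dehydrogenase, was at 52.8, 117 and 117 CPM in MHE and 267, 499 and 281 in MC, with -1.84 (SE 0.45, adjusted p = 0.333). Arrdc2, an arrestin family member, was at 62.1, 52.9 and 64.2 CPM in MHE and 6.12, 21.3 and 14.7 in MC, with 2.13 (SE 0.48, adjusted p = 0.318). Thus Angptl4 and Pdk4, which the hormone is known to raise, lay below MC in MHE without overlap, while Arrdc2 lay above it. DESeq2 called all 3 of these, with adjusted p of 0.00122, 0.0108 and 0.00601, beside 0.459% of all genes.

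For CE against C in muscle 6 targets were higher and 2 lower at an unadjusted p under 0.05, against 1.93% and 1.16% of all genes. For H against C 8 were higher and 2 lower, against 5.83% and 2.59%. Angptl4 was at 28.4, 11.7 and 22.2 CPM in MCE, below all of MC, with -1.51 (SE 0.39, adjusted p = 1) by edgeR for CE against C. Pdk4 was at 88.9, 41.8 and 156 CPM in MH, also below all of MC, with -1.94 (SE 0.46, adjusted p = 0.178) for H against C. Errfi1 was at 154, 518 and 164 CPM in MCE, 207, 401 and 143 in MH and 70.1, 106 and 48.9 in MC, with edgeR log2 fold changes of 1.94 (SE 0.52, adjusted p = 1) for CE against C and 1.76 (SE 0.52, adjusted p = 0.315) for H against C. Per1, a clock gene that the receptor also induces, was at 80.1, 93.6 and 67.3 CPM in MCE, 65.5, 95.7 and 80.8 in MH and 6.67, 39.7 and 30.3 in MC. Its edgeR log2 fold change was 1.68 (SE 0.46, adjusted p = 1) for CE against C and 1.68 (SE 0.46, adjusted p = 0.273) for H against C. For H against C, DESeq2 gave Pdk4, Per1 and Errfi1 adjusted p of 0.00559, 0.0328 and 0.0382. The share of all genes that it called there is not given here, so these values are not read as a result about the targets. For HE against H in muscle 1 was higher and 2 lower, against 1.57% and 2.17% of all genes, and the genes of smallest p were Angptl4 (-1.31), Cdkn1a (-1.24) and Arrdc2 (0.97), with their log2 fold changes. For HE against CE in muscle they were Fbxo32 (-0.80), Stip1 (-0.41) and Foxo1 (-0.69), and for the interaction in muscle Errfi1 (-2.40), Cebpd (-1.29) and Cebpb (-1.41). With running averaged over oxygen in muscle they were Angptl4 (-1.41), Arrdc2 (1.24) and Per1 (0.88), and with oxygen averaged over running Pdk4 (-1.25), Fbxo32 (-0.88) and Per1 (0.88). Between the tissues 16 of the 40 targets were called higher in fat and 14 lower, against 32.6% and 24.9% of all genes, and Pck1 (7.01), Angptl4 (4.40) and Lpl (4.20) had the smallest p.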

How the data were processed

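RNA of epididymal adipose tissue (10 libraries) and gastrocnemius muscle (12 libraries) was sequenced from poly(A)-selected stranded libraries (TruSeq stranded mRNA kit). The authors checked reads with FastQC and aligned them to Ensembl release 99 of the rat genome by HISAT2, and the submitters' processing notes also name Trimmomatic. The counting program and its strand setting were not given in the sources used here, so reads of overlapping genes cannot be told apart. The authors deposited, per gene and library, raw read counts without normalization. The deposited TPM values were made by the authors per gene length and relative to the total of each library, and were rescaled here to sum over nuclear genes. The deposited FPKM values of the authors (22 columns) were not used. The 8 genes and all gene lists were chosen with earlier results of these data known.

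CPM of nuclear counts were computed by dividing each count by the sum over all genes except the 37 mitochondrial ones. Counts were tested with edgeR 4.0.16 (quasi-likelihood F test, TMM scaling, filterByExpr by group with a minimum count of 10 and a minimum total of 15) in R 4.3.3. All genes and the 4 groups of a tissue entered 1 fit. Fat against muscle and the differences between tissues were fitted on nuclear genes, and fat against muscle had treatment as a covariate. P-values were adjusted over all genes tested by the Benjamini-Hochberg method, at a threshold of 0.05. Correlations used Python 3.11.15 with scipy 1.17.1 and numpy 2.4.6, a pseudocount of 1 and 100000 permutations. Groups were taken from the sample titles.

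Fold changes and p-values were given for genes with an unadjusted p under 0.05 in a comparison. The edgeR test returns no standard error, so each SE was derived as the absolute log2 fold change divided by the square root of F. Of the wider lists the called genes and the 3 of smallest p with a mean of at least 5 CPM were named in each comparison, except that of the many called for fat against muscle only the 3 of smallest p were. For likeness, the 2 genes of highest r above the same minimum were named. The fits were tested on simulated counts with known fold changes. The simulation had the same dispersion for all genes and no library that stood apart, so it checks the code and not how well the fits suit these libraries. Alternatives were DESeq2 1.42.0, RLE size factors, no filter on low counts, a filter of 5 CPM in 2 libraries, nuclear genes only, the replicate number as a block, a batch term for the share of Mt-atp6 (split at 8%), and the omission of each library or of FHE3 and FCE2 together. The running and oxygen contrasts averaged over the other factor were added after seeing the data. No replicate pair was a repeated library, since the chi-square per degree of freedom between replicates was at least 12.7.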

Additional observations from a re-analysis of the deposited data

How the results depend on the processing

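The counts of called entries kept within the limits of 1.5 times in 507 of 529 alternatives. The single genes kept direction and side of the threshold in 1514 of 1582, with 28 that lost the call, 40 that gained it and 0 that reversed. Since edgeR called 0 entries in each comparison but fat against muscle, most of these had little room to change. A value could also move and keep its side, as for Fkbp5 in CE against C in fat, with 1.69 and, without FCE2, 0.81. These tallies are thus no measure of stable fold changes. For HE against C in fat, where edgeR called 0 of the 9 entries, DESeq2 called 2 and the omissions of 1 library gave 0 to 1. DESeq2 called 3 for running averaged over oxygen in fat, beside 8.54% of all genes, where edgeR called 0. It called 1 for any of the 4 groups in fat, beside 8.81%, and 1 for HE against C in muscle, beside 0.459%, against 0 by edgeR in each. The 1 of 9 for any of the 4 groups is near the share of all genes and is not read as a result. It called 1719 genes in all for HE against C in fat, against 23 by edgeR. For fat against muscle the 5 calls, beside 57.5% of all genes, were 3 without a filter on low counts, beside 39.7%. They were 3 to 5 when 1 library was left out, with 3 without FHE2, FH3, FCE1 or MCE2. Over these omissions 53% to 57.5% of all genes were called. The 3 correlated pairs of fat were 0 by Spearman's rho, 6 on deviations from group means, 6 on the TMM scale and 0 to 4 when 1 library was left out. Of those 3 pairs, Zbtb16 with Klf9 alone was among the 6 on deviations. The 9 pairs of muscle were 2 on deviations and 4 to 10 when 1 library was left out, with 4 without MHE3 and 5 without MC1. The counts on deviations rest on permutation p-values that may be too small. The cause of these shifts was not tested.

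With the replicate number as a block, Hsd11b1 lost its call for fat against muscle (-0.50 on the log2 scale, adjusted p = 0.0635). Sgk1 gained one, so that 5 entries were called under the block for fat against muscle, beside 54% of all genes. In each comparison of treatments 0 entries were called. The numbers were not taken to pair the libraries in the main fits, since the labels do not say what they stand for. The r of deviations from group means was over 0.1 in 7 of 12 same-numbered pairs and 5 of 25 others in fat. It was over 0.1 in 4 of 18 and 6 of 36 in muscle, and in 7 of 10 and 2 of 20 between the tissues of 1 treatment. On average 8 of 10 fat and 8 of 12 muscle libraries were closer to their own number, and 7 of 10 fat libraries had their best muscle match in it, a hint from the data and not from the design.

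Depth limits the muscle values, where Zbtb16 rests on 8 to 78 counts and Hsd11b1 on 24 to 152. With 2 libraries in FHE and FH, single libraries set several fat values.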
